A study of Mus musculus with 9 samples.

Results

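The Nrf2 antioxidant response was followed through 10 genes in RNA sequencing of mouse substantia nigra. They are Nfe2l2, which encodes the transcription factor Nrf2, its repressor Keap1, and the target genes Hmox1, Nqo1, Txnrd1, Srxn1, Prdx1, Gsta4, Gstm1 and Cat. The 10 were listed by name as parts of this pathway, and all were found among the 55335 genes of the expression table. All 10 were also among the 15997 genes averaging 0.5 FPKM or more, a read level scaled to gene length and library size, that entered the tests. The study comprised 3 groups of 3 libraries each. Vehicle mice received saline by injection 2 times a week for 5 weeks. MPTP mice received MPTP-HCl, a compound toxic to dopaminergic neurons, intraperitoneally at 20 mg/kg on the same schedule. MPTP + exercise mice received the same MPTP course and had voluntary wheel running for 2 months after the first injection. The sources used here give no genotype, strain or age, and no group ran without MPTP. Each group came from 3 mice, but that each library is 1 mouse is not stated, so the p-values reflect library-to-library spread, which may be technical.

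Nrf2 is held in the cytoplasm by Keap1, which passes it to a ubiquitin ligase for degradation. Oxidants and electrophiles modify cysteines of Keap1, Nrf2 then accumulates, pairs with small Maf proteins and binds antioxidant response elements in its target genes. The targets remove peroxides, reduce quinones, degrade heme and attach glutathione to reactive molecules. In brain the pathway is known mainly from astrocytes and other glia, and it is regulated largely through the stability of the Nrf2 protein, which RNA levels do not show.

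To show where the letters of an antioxidant response element lie near the starts of these genes, RefSeq promoters (mouse build GRCm38.p6, from 250 bases before to 50 bases after the start) were searched on both strands for TGACNNNGC. The table held promoters of 8 of the 10 genes, all but Hmox1 and Gsta4, and 4 of the 8 had a match. The motif was found in 12.4% of all 32851 promoters of this length and in 14.0% of the 27025 genes they belong to. The 4 stretches below are printed 5′ to 3′ on the gene's own strand, with the match in capitals.
Nfe2l2, chr2:75704875-75704913, minus strand: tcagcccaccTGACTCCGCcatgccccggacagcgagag
Txnrd1, chr10:82859094-82859142, plus strand: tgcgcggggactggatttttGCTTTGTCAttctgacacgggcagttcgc
Srxn1, chr2:152105532-152105573, plus strand: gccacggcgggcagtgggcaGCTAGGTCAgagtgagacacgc
Prdx1, chr4:116685446-116685494, plus strand: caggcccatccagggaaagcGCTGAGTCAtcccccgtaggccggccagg
The match of Nfe2l2 reads along the gene, and those of Txnrd1, Srxn1 and Prdx1 read on the opposite strand, so the capitals there are the reverse complement of the motif. The first base of the match lay at −240 in Nfe2l2, at −92 in 1 of the 3 listed promoters of Txnrd1, at 29 after the start in Srxn1 and at −133 in Prdx1. Keap1, Nqo1, Gstm1 and Cat had no match in this window. A match describes letters only, and elements farther from the start were not searched.

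The libraries were similar in size but not in their RNA of cell type markers. Summed FPKM ranged from 318416 to 347524, mitochondrial transcripts took 29.8% to 32.0%, and 13413 to 13965 genes reached 1 FPKM. Relative depth, read from the smallest steps of low values, differed by at most 1.21-fold. The 10 dopaminergic markers summed to 47.6 to 97.0 FPKM and did not vary together. The largest part of that sum in every library was Aldh1a1, at 22.1 to 46.8 FPKM, which is also among the wider pathway genes read below. Slc6a3, the dopamine transporter, ranged from a listed 0 to 14.4 FPKM, and was at 0.149 FPKM or below in MPTP library 2 and exercise libraries 1 and 2. Th, tyrosine hydroxylase, ranged from 1.64 to 15.6 FPKM, and Pitx3 was listed at 0 in 5 of the 9 libraries. MPTP library 2 was also lowest in Th, Ddc (2.48 FPKM) and Slc18a2 (1.46 FPKM), whereas exercise library 2, with Slc6a3 listed at 0, held 8.20 FPKM of Ddc and 9.64 of Slc18a2. The 12 choroid plexus markers summed to 39.0 to 348 FPKM in vehicle, 957 to 2080 in MPTP and 22.3 to 952 in exercise libraries. In bulk tissue, fewer cells of a type and less RNA per cell cannot be told apart.

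The 10 genes spanned a wide range of levels, and FPKM, which is scaled to gene length, lets them be ordered. Gstm1, a glutathione transferase, was the most abundant, with a mean of 95.4 FPKM over the 9 libraries. A middle tier held Prdx1 at 41.1, Gsta4 at 32.7, Srxn1 at 29.1 and Cat at 25.4 FPKM, and each of these overlapped its neighbour in range. Keap1 at 9.98 and Txnrd1 at 7.83 FPKM overlapped each other. Nfe2l2 at 5.14, Nqo1 at 3.62 and Hmox1 at 2.85 FPKM formed the lowest tier, again with overlapping neighbours. No library's value crossed the gaps between Gstm1 and Prdx1, between Cat and Keap1, or between Txnrd1 and Nfe2l2. The highest library exceeded the lowest by 1.28-fold for Cat and by 1.90-fold for Srxn1, with the other 8 genes in between.

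**Figure D1:**
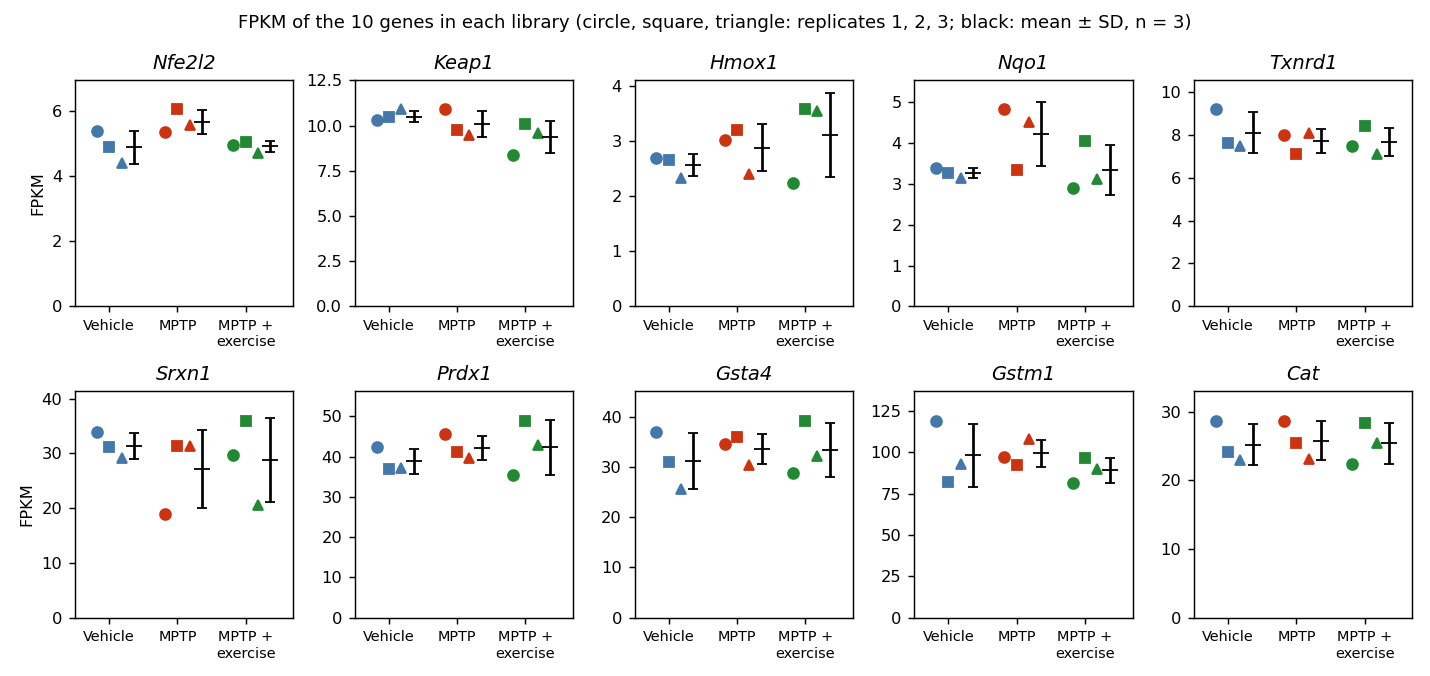
FPKM of the 10 genes in each of the 9 libraries, by group (vehicle, MPTP, MPTP + exercise; 3 libraries each), with 1 panel per gene, shapes for replicate numbers and black bars for the group mean ± SD. Nfe2l2 in the exercise group (4.71 to 5.04 FPKM) lay below all MPTP libraries (5.35 to 6.04 FPKM), while most other panels overlapped.

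The first comparison, MPTP against vehicle, asks how the neurotoxin alone changed these genes. None of the 10 passed the test. Nqo1 and Nfe2l2 had the smallest unadjusted p-values, both with higher means in MPTP, and in no gene were the groups fully apart. In limma on log2(FPKM + 1), 0 of 10 passed an adjusted p of 0.05 (Benjamini-Hochberg over all genes tested), and 0 of 10 had an unadjusted p under 0.05. Over all genes tested, 0.0125% (2 genes, Igfbp2 and H2-K1) passed the adjusted threshold, 4.09% had an unadjusted p under 0.05 and 9.43% had groups that did not overlap. The counts over all genes turned on single libraries: without MPTP library 1, 32 genes passed the adjusted threshold, without vehicle library 1, 4 did, and without MPTP library 2 or 3 or any 1 exercise library, 0 did, with 0 of the 10 genes in each case. Read in same-numbered pairs, Hmox1, Nqo1, Prdx1 and Cat were higher in MPTP in 3 of 3 pairs and 0 of the 10 were lower in all 3, where 28.6% of all genes had 1 direction in all pairs. With the replicate number as a block over all 9 libraries, exercise included, adjusted p-values of the 10 ran from 0.955 to 0.992 in limma. Of the 10, 7 had a positive and 3 a negative difference, with a median of 0.07 on the log2 scale against −0.01 over all genes.

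The second comparison, exercise against MPTP, asks what running added to the same MPTP course. Again 0 of 10 genes passed, adjusted or unadjusted, where 0% of all genes passed the adjusted and 3.99% the unadjusted threshold. Nfe2l2 was the only one of the 10 whose groups did not overlap, beside 8.02% of all genes. Without MPTP library 1, 25 genes passed the adjusted threshold, and still 0 of the 10. Signs were negative for 8 of 10, with a median of −0.02 against −0.01 over all genes. The third comparison, exercise against vehicle, gave 0 of 10 by both thresholds, where 0% and 6.54% of all genes passed. Keap1 was the only one of the 10 with groups that did not overlap, beside 15.6% of all genes. The 3 comparisons share their groups pairwise, so a high or low MPTP mean enters the first and the second with opposite signs.

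**Figure D2:**
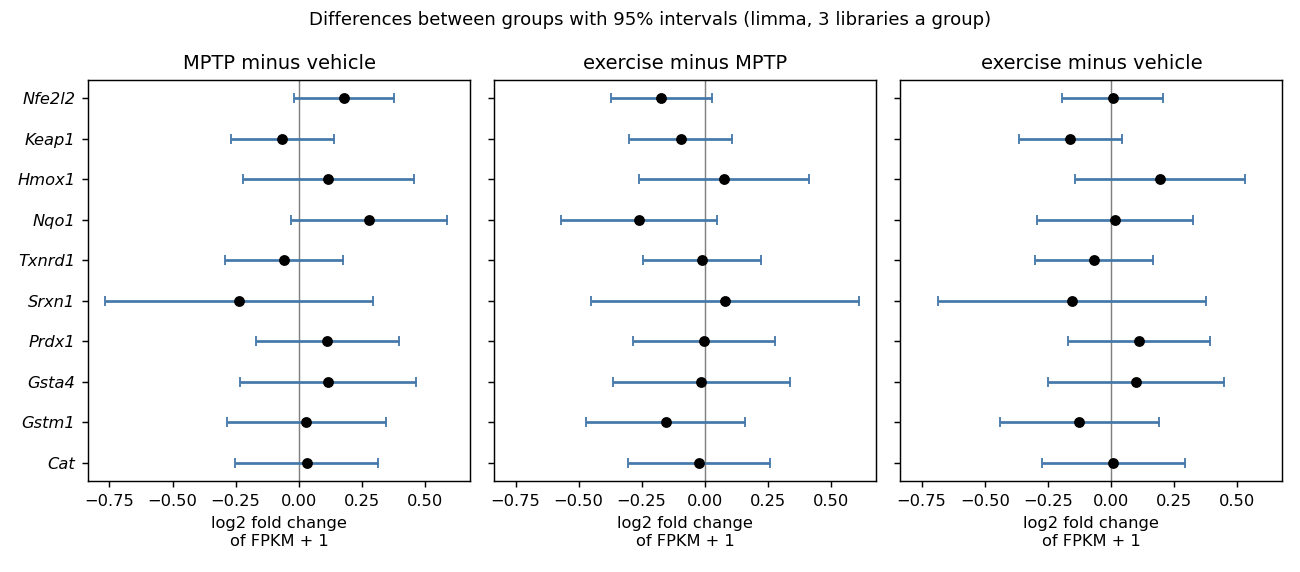
Difference in log2(FPKM + 1) for each of the 10 genes in the 3 comparisons (MPTP minus vehicle, exercise minus MPTP, exercise minus vehicle), with points for the limma estimate and bars for its 95% confidence interval. Every interval spans 0, and the widest intervals, 0.53 to either side, belong to Srxn1.

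Nfe2l2 (ENSMUSG00000015839, chromosome 2, 75675513 to 75704641 on the minus strand of GRCm38) measured 5.39, 4.87 and 4.38 FPKM in vehicle libraries 1 to 3. It measured 5.35, 6.04 and 5.55 FPKM in MPTP libraries and 4.94, 5.04 and 4.71 FPKM in exercise libraries. Vehicle library 1 reached into the MPTP range, whereas all 3 exercise libraries lay below all 3 MPTP libraries. Group means were 4.88 ± 0.502 (SD, n = 3), 5.65 ± 0.354 and 4.90 ± 0.170 FPKM. The log2 difference between MPTP and vehicle was 0.18 (SE 0.088, 95% confidence interval −0.02 to 0.38, adjusted p = 0.991 in limma). That between exercise and MPTP was −0.17 (interval −0.37 to 0.03, adjusted p = 1 in limma). Exercise and vehicle differed by 0.01 (interval −0.19 to 0.21).

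Keap1 (ENSMUSG00000003308, chromosome 9, 21229730 to 21239361, minus strand) measured 10.3, 10.5 and 10.9 FPKM in vehicle libraries. MPTP libraries held 10.9, 9.77 and 9.50 FPKM, and exercise libraries 8.37, 10.1 and 9.59 FPKM. Every exercise library lay below every vehicle library, while the MPTP libraries overlapped both. The log2 difference between exercise and vehicle was −0.16 (SE 0.089, interval −0.36 to 0.04, adjusted p = 0.762 in limma). Between MPTP and vehicle it was −0.06 (interval −0.27 to 0.14). Keap1 shares 510 exonic bases with the antisense gene Gm16754, listed at 0.143 to 0.624 FPKM. The sources used here do not say whether strand was used in counting, so part of the Keap1 value is uncertain.

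Hmox1 (ENSMUSG00000005413, chromosome 8, 75093621 to 75100589, plus strand) encodes the inducible heme oxygenase, which opens heme and releases iron. It measured 2.7, 2.65 and 2.33 FPKM in vehicle, 3.02, 3.21 and 2.40 in MPTP, and 2.24, 3.58 and 3.54 in exercise libraries. The lowest and the highest of the 9 values both belonged to exercise libraries. Group means were 2.56 ± 0.199 (SD, n = 3), 2.88 ± 0.426 and 3.12 ± 0.761 FPKM. The log2 difference was 0.12 between MPTP and vehicle (interval −0.22 to 0.46) and 0.19 between exercise and vehicle (interval −0.14 to 0.53, adjusted p = 0.784 in limma).

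Nqo1 (ENSMUSG00000003849, chromosome 8, 107388225 to 107403206, minus strand) encodes a reductase that turns quinones into hydroquinones. Vehicle libraries were tightly grouped at 3.40, 3.28 and 3.14 FPKM. MPTP libraries measured 4.83, 3.34 and 4.51 FPKM, so 2 of them exceeded all vehicle libraries and MPTP library 2 fell within the vehicle range. Exercise libraries measured 2.89, 4.05 and 3.11 FPKM. The log2 difference was 0.28 between MPTP and vehicle (SE 0.136, interval −0.03 to 0.59, adjusted p = 0.991 in limma). Between exercise and MPTP it was −0.26 (interval −0.57 to 0.05, adjusted p = 1 in limma). These were the largest positive and the largest negative differences among the 10 genes in those comparisons.

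Txnrd1, Srxn1 and Prdx1 belong to the thioredoxin system. Txnrd1 (ENSMUSG00000020250, chromosome 10, 82833951 to 82897712, plus strand), the cytosolic thioredoxin reductase, measured 9.18, 7.60 and 7.49 FPKM in vehicle libraries. It measured 8.0, 7.08 and 8.09 in MPTP and 7.45, 8.41 and 7.12 in exercise libraries. All 3 groups overlapped, and the MPTP difference was −0.06 on the log2 scale (interval −0.29 to 0.18). Srxn1 (ENSMUSG00000032802, chromosome 2, 152105516 to 152111376, plus strand), sulfiredoxin, restores overoxidised peroxiredoxins. It measured 34.0, 31.1 and 29.2 FPKM in vehicle, 18.9, 31.3 and 31.3 in MPTP, and 29.8, 36 and 20.6 in exercise libraries. MPTP library 1 and exercise library 3 stood apart at 18.9 and 20.6 FPKM, below the other 7 at 29.2 to 36 FPKM. The MPTP difference was −0.24 (interval −0.77 to 0.29), and without MPTP library 1 it was −0.004. Prdx1 (ENSMUSG00000028691, chromosome 4, 116685544 to 116700822, plus strand), a peroxiredoxin that reduces hydrogen peroxide, measured 42.4, 36.9 and 37.1 FPKM in vehicle libraries. It measured 45.5, 41.1 and 39.7 in MPTP and 35.3, 48.9 and 42.8 in exercise libraries. The exercise group held both its lowest and its highest value, and the MPTP difference was 0.11 (interval −0.17 to 0.40). Of the 50-base stretches of the longest Prdx1 transcript, 10.87% also occur in 3 other genes, so its value could be shared with those copies.

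Gsta4 and Gstm1 are glutathione transferases, and Gsta4 is known for clearing 4-hydroxynonenal, a product of lipid peroxidation. Gsta4 (ENSMUSG00000032348, chromosome 9, 78182774 to 78209349, plus strand) measured 37.0, 30.9 and 25.7 FPKM in vehicle libraries. It measured 34.5, 35.9 and 30.3 in MPTP and 28.8, 39.2 and 32.2 in exercise libraries. The vehicle group alone covered most of that range, and the MPTP difference was 0.11 on the log2 scale (interval −0.23 to 0.46). Gstm1 (ENSMUSG00000058135, chromosome 3, 108012255 to 108017973, minus strand) measured 119, 82.2 and 93.1 FPKM in vehicle, 97.1, 92.4 and 108 in MPTP, and 81.2, 96.2 and 89.6 in exercise libraries. Vehicle library 1 was the highest of all, and the exercise minus MPTP difference was −0.15 (interval −0.47 to 0.16). Gstm1 shares 23.15% of its 50-base stretches with 5 other genes, mostly close relatives such as Gstm2-ps1 and Gstm3, so its level is uncertain.

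Cat (ENSMUSG00000027187, chromosome 2, 103453849 to 103485160, minus strand) encodes catalase, the peroxisomal enzyme that splits hydrogen peroxide. It measured 28.6, 24.1 and 22.9 FPKM in vehicle, 28.7, 25.5 and 23.1 in MPTP, and 22.4, 28.3 and 25.4 in exercise libraries. The 3 group means, 25.2 ± 3.03 (SD, n = 3), 25.8 ± 2.78 and 25.4 ± 2.97 FPKM, lay within 1 SD of each other. The differences were 0.03 for MPTP against vehicle (interval −0.25 to 0.31) and −0.02 for exercise against MPTP (interval −0.31 to 0.26). Across the 10 genes the intervals reached 0.20 to 0.53 to either side of the estimate, and changes smaller than that were not resolved with 3 libraries per group. The intervals are per gene and unadjusted, so larger changes could also miss the adjusted threshold. Gpx8, described below, differed by 0.76 between MPTP and vehicle with an adjusted p of 0.812 in limma.

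Cat was highest in the 3 libraries with the most mature oligodendrocyte marker RNA, 1 from each group, and Gsta4 and Prdx1 were also high there. The 9 markers (Mbp, Mog, Mag and others) summed to 1210 FPKM in vehicle library 1, 1070 in MPTP library 1 and 1230 in exercise library 2, and to 727 to 870.0 FPKM in the other 6. The same 3 libraries were highest in summed oligodendrocyte precursor markers, at 98.3 to 110 FPKM against 73.7 to 85.8 FPKM. The largest part of that sum was Olig1, at 55.5 to 66.5 against 41.9 to 50.1 FPKM, and Olig2 followed it. Pdgfra, at 5.23 to 6.73 against 5.66 to 7.59 FPKM, overlapped, as did Cspg4, Gpr17 and C1ql1. The 3 libraries were also lowest in summed microglial markers, at 81.4 to 88.8 FPKM against 92.1 to 112 FPKM. Which cell types the split belongs to was not tested. Cat was at 28.3 to 28.7 FPKM in those 3 libraries and at 22.4 to 25.5 FPKM in the other 6. Gsta4 was at 34.5 to 39.2 against 25.7 to 35.9 FPKM, and Prdx1 at 42.4 to 48.9 against 35.3 to 42.8 FPKM, so these 2 overlapped. The 3 libraries were set apart by a cut at the widest gap in mean log2 marker level, 5.98 to 6.24. Such a cut always gives 2 sets. Correlations were read within the lower 6. There Cat gave Pearson's r = 0.85 (exact permutation p = 0.0375, adjusted 0.375 over the 10 genes) and Spearman's rho = 0.89 (exact permutation p = 0.0333, adjusted 0.333). Without the 2 libraries farthest from the median marker level, r was 0.63. Gsta4 gave r = 0.73 (exact permutation p = 0.106, adjusted 0.417) and rho = 0.77, and Prdx1 gave r = 0.53 (exact permutation p = 0.275, adjusted 0.521) and rho = 0.49. None of the 10 genes passed within those 6 libraries after adjustment. Across all 9 libraries, 175 relations of the genes with each other and with 13 marker lists were computed, and 0 passed after adjustment (lowest adjusted exact permutation p = 0.0612). That lowest value belonged to Cat with the mature oligodendrocyte markers, at Pearson's r = 0.95. Without vehicle library 1 and exercise library 2, the farthest from the median marker level, r was also 0.95.

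**Figure D3:**
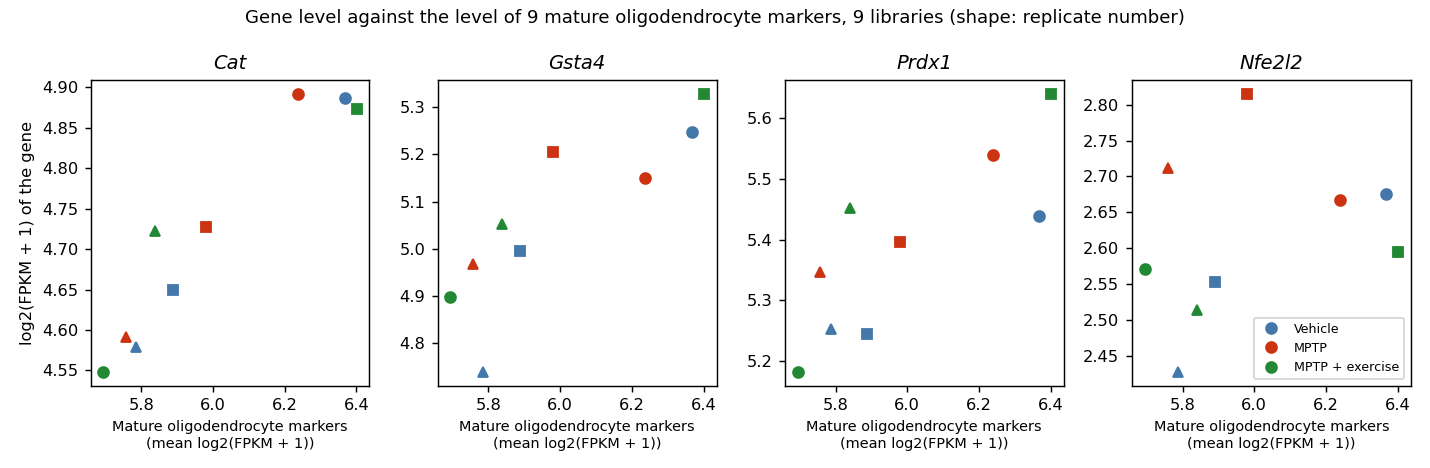
Level of Cat, Gsta4, Prdx1 and Nfe2l2, as log2(FPKM + 1), against the mean log2(FPKM + 1) of 9 mature oligodendrocyte markers in the 9 libraries (colour: group; shape: replicate number). Cat is highest in the 3 libraries with the highest marker level, 1 from each group, and Nfe2l2 is highest in MPTP library 2.

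Several marker lists of other cell types leaned in 1 direction between groups, with 0 of their genes past the adjusted threshold in limma. Over all genes, 48.1% were higher in MPTP than in vehicle and 45.7% higher in exercise than in MPTP. The 12 choroid plexus markers were all higher in MPTP than in vehicle (median log2 difference 1.51, 10 at an unadjusted p under 0.05 in limma) and all lower in exercise than in MPTP (median −1.07). The 10 endothelial markers were all lower in exercise than in MPTP, with a median of −0.27, and summed to 97.7 to 103 FPKM in vehicle, 104 to 111 FPKM in MPTP and 80.3 to 103 FPKM in exercise libraries. The 10 pericyte, smooth muscle and fibroblast markers (median −0.33), the 8 tested blood markers (−0.93) and the 6 ependymal markers (−0.10) were likewise all lower in exercise than in MPTP. Of 10 microglial markers, 9 were higher in MPTP than in vehicle and 8 lower in exercise than in MPTP, with medians of 0.10 and −0.10. The 8 thalamic markers were all lower in MPTP than in vehicle, with a median of −0.44. None of these had an unadjusted p under 0.05 in limma, and their sums overlapped, at 104 to 267 FPKM in vehicle and 67.5 to 210 FPKM in MPTP. As with choroid plexus and most endothelial and microglial markers, Nfe2l2 and Nqo1 had their highest group mean in MPTP, and so did Gsta4, Gstm1 and Cat. With group means subtracted, Pearson's r of Nfe2l2 and Nqo1 with the choroid plexus list over the 9 libraries was −0.67 and −0.27. It was −0.31 and −0.79 with the microglial list, and 0.24 and 0.68 with the endothelial list. The part of these cell types in the Nfe2l2 and Nqo1 values was not tested.

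The wider pathway was read from a list of 112 genes in 8 roles, of which 98 were tested and the 10 genes are part. None of the 98 passed the adjusted threshold in any of the 3 comparisons in limma. At an unadjusted p under 0.05, 7 were higher and 0 lower in MPTP than in vehicle (7.14%, beside 4.09% of all genes, of which 417 were higher and 237 lower). In exercise against MPTP, 0 were higher and 6 lower (6.12%, beside 3.99% of all genes, 177 higher and 462 lower). In exercise against vehicle, 4 were higher and 2 lower (6.12%, beside 6.54% of all genes). In MPTP against vehicle, 72 of 98 had a positive difference (73.5%, beside 48.1% of all genes), with a median of 0.06. Scaling every library to the same FPKM sum outside the mitochondrial genome lowered this difference in all genes together: 55 of 98 list genes were then positive, with a median of 0.01, beside 34.5% of all genes, with a median of −0.055. In the reported scaling without vehicle library 1, 2 or 3, 75 of 98, 59 of 97 and 61 of 99 were positive. The shares over all genes were then 48.2%, 47.7% and 49.1%. In exercise against MPTP, 33 of 98 had a positive difference (33.7%, beside 45.7% of all genes), with a median of −0.04. That split was 50 of 97 without exercise library 1. In exercise against vehicle, 55 of 98 had a positive difference (56.1%, beside 44.7% of all genes), and 39 of 98 at the same FPKM sum, beside 31.3% of all genes.

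**Figure D4:**
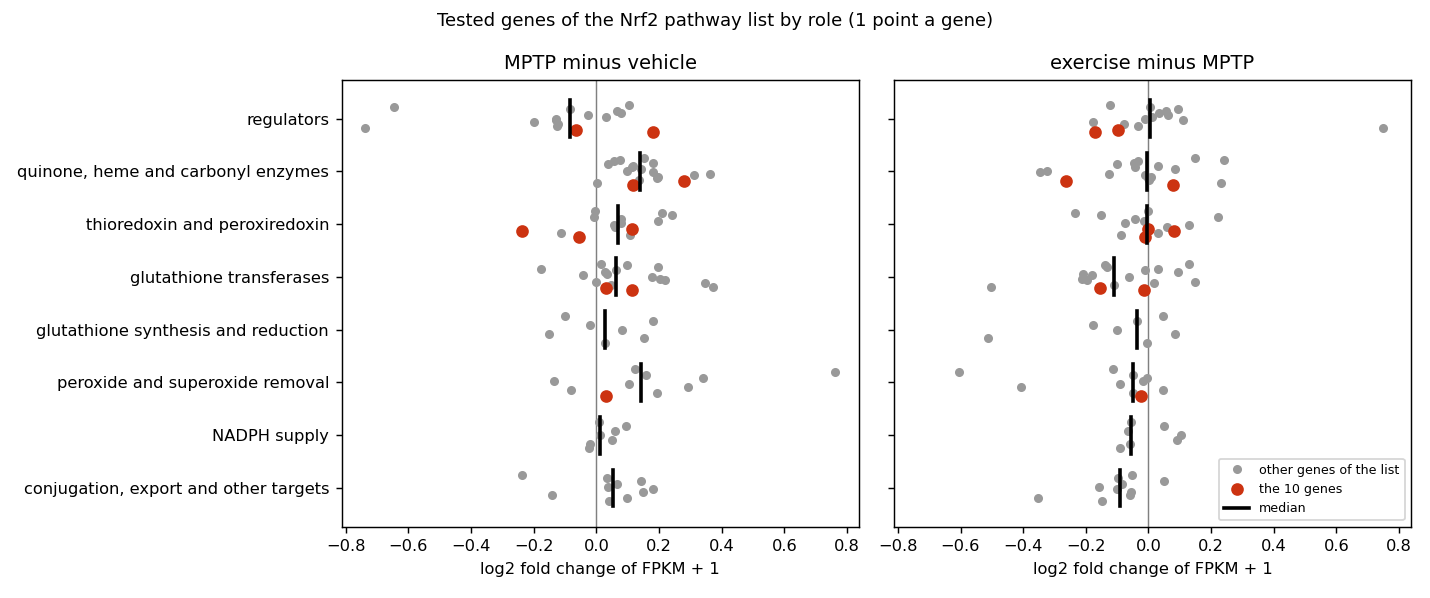
Differences in log2(FPKM + 1) of the 98 tested pathway genes, by role, in MPTP minus vehicle and exercise minus MPTP, with 1 point per gene (red: the 10 genes) and a black bar at each role's median. In MPTP minus vehicle all 18 quinone, heme and carbonyl enzymes lie above 0, with a median of 0.14, while the regulators have a median of −0.08.

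By role, all 18 quinone, heme and carbonyl enzymes had a higher mean in MPTP than in vehicle, with a median log2 difference of 0.14, and 16 of 18 did so at the same FPKM sum. The lowest of the 18 differences was 0.002. Without vehicle library 1, 2 or 3, the counts in this role were 16 of 18, 15 of 17 and 16 of 19. Among enzymes of peroxide and superoxide removal, 8 of 10 were higher, with a median of 0.14. Of the 15 regulators tested, 5 were higher and 10 lower, with a median of −0.08. In exercise against MPTP, 9 of 10 peroxide and superoxide genes and 9 of 10 conjugation and export genes had lower means, where 45.7% of all genes had higher ones. These counts were 7 and 6 of 10 without exercise library 1, and 7 and 7 of 10 without MPTP library 1.

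Gpx8, a glutathione peroxidase family member of the endoplasmic reticulum, had the smallest p of the list in MPTP against vehicle. It measured 3.24, 4.24 and 4.47 FPKM in vehicle, 7.53, 7.58 and 7.10 in MPTP, and 5.89, 2.93 and 5.2 in exercise libraries. All MPTP libraries lay above all others. The log2 difference was 0.76 against vehicle (SE 0.197, unadjusted p = 0.00406, adjusted p = 0.812 in limma) and −0.61 for exercise against MPTP (unadjusted p = 0.0138 in limma). Sod3, the extracellular superoxide dismutase, had means of 2.41 ± 0.230 (SD, n = 3) in vehicle, 3.18 ± 0.367 in MPTP and 2.16 ± 0.348 FPKM in exercise. Its exercise minus MPTP difference was −0.41 (unadjusted p = 0.00543, adjusted p = 1 in limma), the smallest p of the list there. Gstm2, a transferase close to Gstm1, had the same order of means, at 1.02 ± 0.422, 1.58 ± 0.146 and 0.835 ± 0.262 FPKM. Gpx4, which reduces lipid peroxides in membranes, did not share that order, with 108 ± 5.62, 138 ± 18 and 137 ± 16.5 FPKM. Its difference from vehicle was 0.34 in MPTP (unadjusted p = 0.0217 in limma) and 0.33 in exercise (unadjusted p = 0.0236 in limma). Gstm5 showed the same shape, with means of 72.2 ± 6.27, 92.3 ± 13.1 and 93.1 ± 7.71 FPKM. Cbr3, a carbonyl reductase, differed by 0.36 between MPTP and vehicle (unadjusted p = 0.0496 in limma).

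In exercise against MPTP the other genes with the smallest p-values were Abcc4, an exporter, Ephx1, an epoxide hydrolase, and Aox1, an aldehyde oxidase. Their log2 differences were −0.35, −0.34 and −0.32, and in each the exercise libraries lay below the MPTP libraries. Groups did not overlap in 12.2% of the tested list genes and 8.02% of all genes, and these genes were picked by their p. In exercise against vehicle, Ptgr1 and Akr1b3, reductases of reactive carbonyls, had higher means, by 0.30 and 0.23. Bach1, a repressor that competes with Nrf2 for its elements, had 3.09 ± 0.182 (SD, n = 3) FPKM in vehicle, 2.76 ± 0.251 in MPTP and 2.56 ± 0.155 in exercise, a log2 difference of −0.20 (unadjusted p = 0.0434, adjusted p = 0.753 in limma).

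The genes whose values over the 9 libraries were most like those of Nfe2l2 were Alad (Pearson's r = 0.947), Icam2 (0.936) and Chmp3 (0.934), out of 12234 genes compared. Those most like Hmox1 were Txndc15 (0.956), Seh1l (0.955) and Grina (0.919). These are the highest of many correlations over the same 9 libraries and are given as a description.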

How the data were processed

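The authors deposited FPKM for 55335 genes in 9 libraries. Per the labels, mRNA was enriched on beads, fragmented and sequenced on a NovaSeq6000. The submitters' processing notes name bcl2fastq, HTSeq, DESeq2 and GRCm38. The aligner, the FPKM tool and the strandedness are not given in these sources, and absolute depth is unknown. Symbols came from GENCODE M21 (55154 matched, 181 not). limma 3.58.1 in R 4.3.3 was fitted with a mean-variance trend to log2(FPKM + 1), a scale that understates changes of low genes, in 15997 genes averaging 0.5 FPKM or more. All 9 libraries shared 1 fit, with two-sided p-values adjusted by Benjamini-Hochberg (threshold 0.05). The fit was tested on simulated data with independent libraries and planted changes larger than those of any member, so it does not cover changes of their size. The members and lists were chosen with earlier results of these data known, and the relations with marker lists and the split by oligodendrocyte level after the values were seen. 1 listed cell type marker is not reported here and was left out of its list's values. Named pathway genes are the 6 nonmembers with the smallest p in each comparison. Same-numbered MPTP and vehicle libraries deviated together (correlations 0.25, 0.33 and 0.11), so a fit with the replicate number as a block was read beside that comparison. The block covered all 9 libraries, exercise included, so it was not a paired test of MPTP and vehicle alone. Paired with MPTP, exercise libraries gave −0.34, −0.13 and 0.25, and paired with vehicle they gave −0.26, 0.01 and 0.24. Alternatives changed the pseudocount, filter, scaling, weights and libraries.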

Additional observations from a re-analysis of the deposited data

How the results depend on the processing

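Under 17 alternative settings, 0 of 510 member values passed the threshold in limma, and 50 had the other sign. With the replicate block, 3 genes passed in MPTP minus vehicle (2 without it) and 0 in each other comparison, and the block changed no call on a member. Other counts of genes past the threshold were 0 for MPTP minus vehicle with only the 2 groups compared, and, for exercise minus MPTP, 3 with no filter on low values and 1 with array weights (0 in the reported fit). Leaving out 1 library gave 0 to 32 genes for MPTP minus vehicle, 0 to 25 for exercise minus MPTP and 0 to 2 for exercise minus vehicle. The highest counts in the first pair, 32 and 25, came without MPTP library 1. Without both MPTP library 1 and exercise library 3, chosen after their low Srxn1 values were seen, the counts were 26, 8 and 0. Small differences changed sign. The scaling to 1 sum moved the median of all genes from −0.006 to −0.055 in MPTP minus vehicle and from −0.022 to −0.076 in exercise minus vehicle, so sign changes under it stand beside a shift common to all genes. At the same FPKM sum outside the mitochondrial genome, Gstm1 and Cat in MPTP minus vehicle were −0.033 and −0.03, and Nfe2l2, Nqo1 and Cat in exercise minus vehicle were −0.053, −0.038 and −0.061. With quantile scaling, Gstm1 was −0.023 in the first and Cat −0.028 in the last comparison. With array weights, Txnrd1 was 0.003 in the first and Nqo1 −0.029 in the last. Leaving out 1 library gave these ranges in MPTP minus vehicle: Txnrd1 −0.104 to 0.027, Gsta4 −0.012 to 0.242, Gstm1 −0.088 to 0.176 and Cat −0.046 to 0.123. In exercise minus MPTP they were Hmox1 −0.016 to 0.241, Txnrd1 −0.072 to 0.058, Srxn1 −0.151 to 0.296, Prdx1 −0.109 to 0.119, Gsta4 −0.132 to 0.085 and Cat −0.102 to 0.061. In exercise minus vehicle they were Nfe2l2 −0.055 to 0.069, Nqo1 −0.094 to 0.093, Txnrd1 −0.129 to 0.016, Srxn1 −0.328 to 0.06, Gsta4 −0.026 to 0.228, Gstm1 −0.243 to 0.021 and Cat −0.071 to 0.1. Nfe2l2 kept its sign under all 17 settings in MPTP minus vehicle (0.117 to 0.24) and in exercise minus MPTP (−0.204 to −0.129), as did Nqo1 (0.195 to 0.408 and −0.4 to −0.141). Keap1 also kept its sign in both, Hmox1, Srxn1 and Prdx1 in MPTP minus vehicle, and Gstm1 in exercise minus MPTP. All settings reuse the same libraries, and both comparisons share the MPTP group. The cause was not tested. With 3 libraries per group, log2 changes smaller than the reach of the intervals, 0.2 to 0.53 to either side, were not resolved. These intervals are unadjusted, so larger changes could also miss the adjusted threshold.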

Other observations

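Some pathway genes outside the 10 had separate high and low levels that did not follow the groups; they are named here after their values were seen. Nfe2l1, a relative of Nrf2 that controls proteasome genes, measured 60.3, 12.7 and 51.6 FPKM in vehicle, 11.1, 59.5 and 12 in MPTP, and 53.0, 64.2 and 11.8 in exercise libraries. Each group held both high and low libraries, and the highest exceeded the lowest 5.79-fold. Gsk3b, a kinase that marks Nrf2 for degradation, measured 6.56, 22.0 and 20.6 FPKM in vehicle, 21.6, 5.42 and 5.75 in MPTP, and 19.3, 6.14 and 5.80 in exercise libraries. Both genes were at their high level in vehicle library 3 and exercise library 1. Gclm, a subunit of the enzyme that starts glutathione synthesis, was at 1.98 FPKM in exercise library 3 and at 5.96 to 9.35 FPKM elsewhere. Cbr1, a carbonyl reductase, was at 17.2 FPKM in MPTP library 1 and 18.1 FPKM in exercise library 2, against 8.45 to 10.6 FPKM in the other 7. Slc7a11, the cystine transporter that feeds glutathione synthesis, ranged from 2.21 to 3.96 FPKM, lowest in exercise library 2 and highest in vehicle library 3.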
